A study of Homo sapiens with 4 samples.

Results

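The 10 genes described here are the catalytic and activator genes by which an immunoproteasome differs from a constitutive proteasome. They were taken by name from a table of 61541 human genes. PSMB8, PSMB9, PSMB10, PSME1 and PSME2 form the inducible group, and PSMB5, PSMB6, PSMB7, PSME3 and PSME4 form the group they were set against. All 10 were in the table and all 10 passed the filter on low counts. RNA was sequenced from MHCC97H, an established hepatocellular carcinoma (HCC) cell line, in 4 libraries. A pair of libraries came from control cells (shCon) and a pair from cells with a knockdown of UBXN1 (shUBXN1), and no interferon or other treatment is named for either group. GEO's design text speaks of transfection, whereas the study's methods describe lentiviral pLKO.1 vectors and call the control shRFP. The labels do not say which UBXN1 shRNA the sequenced cells carried, how long it had been expressed or whether replicates were separate cultures, so p-values measure only the spread between these libraries.

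The proteasome is a barrel of stacked rings whose inner beta rings hold 3 kinds of catalytic subunit. PSMB5, PSMB6 and PSMB7 carry its chymotrypsin-like, caspase-like and trypsin-like activities. During assembly in cells exposed to interferon-gamma, PSMB8, PSMB9 and PSMB10 take their respective places, which alters the peptides that MHC class I molecules receive. The barrel can be capped by PSME1 and PSME2, the subunits of the 11S activator PA28, whose genes are also induced by interferon, by PSME3, a related and mainly nuclear activator, or by PSME4 (PA200), a large nuclear activator. UBXN1 is a cofactor of VCP, the ATPase that extracts ubiquitinated proteins and passes them towards the proteasome. The comparison of shUBXN1 with shCon shows how the mRNA levels of the exchangeable parts stood in HCC cells with less UBXN1.

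The inducible genes are known targets of interferon-regulated factors, so the letters of their binding elements were looked for in the RefSeq promoter windows of GRCh38.p14, which run from 250 bases before to 50 bases after a gene's start. Windows were found for 8 of the 10 genes, 10 windows in all, and PSMB6 and PSMB7 had none in the table used here. The letters GAAANNGAAA, part of the interferon-stimulated response element (ISRE), searched on both strands, were in the windows of 4 of the 5 inducible genes. In PSMB5, PSME3 and PSME4 they were in 0 windows. Of all 35116 windows, 3.57% held them. The sites are shown with the matching letters in capitals, 30 bases each and 5′ to 3′ on the strand of the gene, because all 4 genes had the same 10 letters in one orientation or the other. TAP1, which is the neighbour of PSMB9 and encodes a subunit of the peptide transporter, is added for its overlapping pair of matches.
PSMB8, chr6:32844032-32844061, minus strand: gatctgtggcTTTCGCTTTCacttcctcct
PSMB10, chr16:67936852-67936881, minus strand: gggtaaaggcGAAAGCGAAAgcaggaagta
PSME1, chr14:24136189-24136218, plus strand: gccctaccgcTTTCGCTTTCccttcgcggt
PSME2, chr14:24146619-24146648, minus strand: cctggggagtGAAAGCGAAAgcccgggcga
TAP1, chr6:32853816-32853845, minus strand: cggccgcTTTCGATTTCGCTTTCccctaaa
These 10 letters, GAAAGCGAAA or TTTCGCTTTC, were taken from the matches of the 4 genes after those were seen. They stood in 35 of the 35116 windows (0.0997%), those of the 4 genes among them, so this share is only a description. The match lay 28 to 19 bases before the RefSeq start in PSME2 and 21 to 12 bases before it in PSMB10. In PSMB8 it straddled the inner of the annotated starts, and in PSME1 it lay 5 to 14 bases after the start. A match is a run of letters and not a measured binding site.

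PSMB9 was the inducible gene without these letters in its window. Its RefSeq start lies 488 bases from that of TAP1 on the opposite strand, and the nearest of the TAP1 letters are 354 bases from the PSMB9 start. The letters TTCNNNGAA of the gamma-activated site (GAS) were in the windows of PSMB8, PSMB5 and PSME3, against 7.66% of all windows. They were also in a window of TAP1 other than that of its ISRE letters. PSMB5, the only constitutive catalytic gene with windows, held GAS letters at the sites shown, in capitals.
PSMB8, chr6:32844093-32844122, minus strand: aactgtccttTTCTCGGAAaaggcaggggg
PSMB5, chr14:23035039-23035068, minus strand: cccgacccccTTCAGTGAAaatggtctttc
PSMB5, chr14:23034896-23034925, minus strand: ttgctaggcgTTCTCAGAAttagttctttc
The letters GGGNNTTTCC (NF-kappa B, 1.91% of windows) were in 0 member windows and in the TAP1 window that held its ISRE letters. TGACNNNGC (antioxidant response element, 13.3% of windows) was in the windows of PSMB9, PSME1, PSME2 and PSME4.

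The libraries held 23373700 to 27380508 counts. UBXN1 stood at 67.0 and 77.3 CPM (counts scaled to library size with TMM factors) in shCon and at 16.8 and 18.5 CPM in shUBXN1 (log2 fold change -2.03, SE 0.0963, edgeR adjusted p = 9.98e-10). The change was broad: of 16863 genes tested with edgeR's quasi-likelihood test, 56.2% passed a Benjamini-Hochberg adjusted p of 0.05, 28.0% higher and 28.2% lower in shUBXN1, and the median log2 fold change was 0.016. The share of mitochondrial counts, 5.28% and 5.59% in shCon, was 7.43% and 8.27% in shUBXN1. It moved with the groups, and its part in the results was not tested.

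Of the 5 inducible genes, 1 rose, 0 fell and 4 did not pass the test, with a median log2 fold change of 0.17. Of the 5 genes set against them, 0 rose, 3 fell and 2 did not pass, with a median of -0.21. The gene that rose was PSME2, and those that fell were PSMB5, PSMB6 and PSME3. These are 4 of 10 genes called, a lower share than the 56.2% of all genes tested, and 0 of 10 reached a fold change of 2, which 11.8% of genes did upwards and 6.09% downwards at an unadjusted p under 0.05. The groups' CPM values did not overlap for 9 of the 10 genes, against 78.0% of all genes tested. The counts depended on the scaling: with total counts in place of TMM, 2 inducible genes were called higher and only PSMB5 was called lower.

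**Figure D1:**
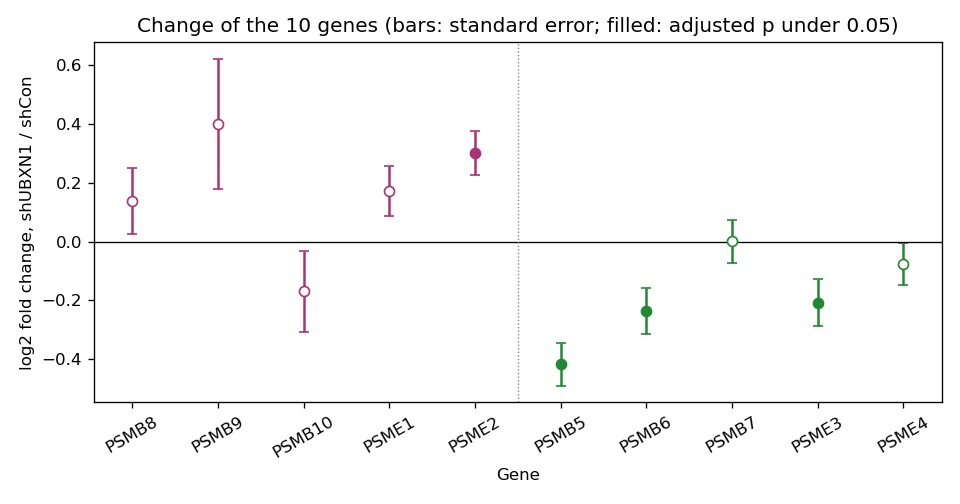
Log2 fold change of shUBXN1 over shCon for each of the 10 genes from edgeR, with bars of 1 standard error. Filled points passed an adjusted p of 0.05, and the dotted line parts the inducible genes on the left from the others. PSME2 is the filled point above 0 at 0.30, and PSMB5, PSMB6 and PSME3 are the filled points below 0.

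Levels of different genes were compared per transcript length, as TPM computed from the counts and gene lengths deposited. In shCon, PSMB7 was highest at a mean of 255 TPM, followed by PSMB6 at 204, PSMB5 at 175, PSME3 at 146, PSME2 at 123, PSME1 at 85.0, PSME4 at 44.3, PSMB8 at 30.6, PSMB10 at 22.7 and PSMB9 at 7.71 TPM. No neighbours in that order overlapped between the libraries of shCon. The constitutive catalytic genes thus stood above all others in these cells, and the 3 inducible catalytic genes below all others. In shUBXN1 the order was the same except that PSME2 (158 TPM) stood above PSMB5 (136 TPM) and PSME3 (132 TPM), and the libraries of PSMB5 and PSME3 overlapped. Summed over the 5 inducible genes the level was 273 and 265 TPM in shCon and 324 and 324 TPM in shUBXN1. For the 5 genes set against them it was 811 and 838 TPM in shCon and 770 and 746 TPM in shUBXN1. Neither pair of sums overlapped between the groups, and neither did the CPM of 78.0% of all genes tested. Such levels come from whole cultures, in which fewer cells expressing a gene and less RNA per cell cannot be told apart.

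**Figure D2:**
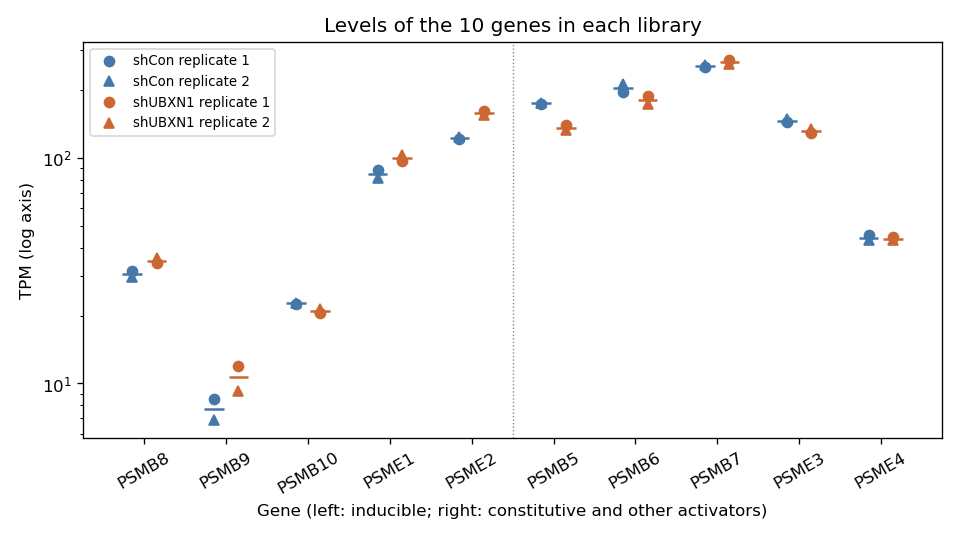
TPM of the 10 genes (vertical log axis) in each library, with shCon in blue and shUBXN1 in orange, circles for replicate 1, triangles for replicate 2 and a dash at the mean of each group. The constitutive catalytic genes PSMB5, PSMB6 and PSMB7 lie above 130 TPM in every library, and PSMB8, PSMB9 and PSMB10 lie below 36 TPM.

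PSMB8 (chr6:32840717-32844679, minus strand, GRCh38), the inducible partner of PSMB5, stood at 17.3 and 16.9 CPM in shCon and at 17.7 and 19.97 CPM in shUBXN1. Both shUBXN1 values were above the shCon values, but the first of them by less than the gap between the shUBXN1 libraries. The log2 fold change was 0.14 (SE 0.111, edgeR adjusted p = 0.309). Antisense genes cover 17.3% of its exon bases, among them PSMB8-AS1, a long noncoding RNA, and whether counting used strand is not given in the sources used here. PSMB8-AS1 itself had 0.262 and 0.553 CPM in shCon and 1.33 and 1.54 CPM in shUBXN1, from 7.44 to 36.1 counts per library. It rose by a log2 fold change of 1.82 (SE 0.496, edgeR adjusted p = 0.00615), and without shCon replicate 1 it had 1.37 (edgeR adjusted p = 0.0901). Its exons are covered to 52.6% by the antisense genes PSMB8 and TAP1, so its reads and theirs cannot be told apart without strand, and TAP1 had 522 and 450 counts in shCon and 1422 and 1510 in shUBXN1.

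PSMB9 (chr6:32844136-32859851, plus strand), the partner of PSMB6 and the lowest of the 10 genes, was counted 114 and 83 times in the shCon libraries, and 139 and 110 times under the knockdown. The CPM values were 4.27 and 3.53 for shCon, then 5.61 and 4.69 for shUBXN1. The groups did not overlap, but the spread within each group was larger than the gap between them. The log2 fold change of 0.40, with an SE of 0.222, did not pass the test (edgeR adjusted p = 0.142). PSMB8-AS1, on the same strand, covers 5.21% of the exon bases of PSMB9, and PSMB8, on the other strand, covers 4.16%. The GENCODE span given above also encloses TAP1 (chr6:32845209-32853816, minus strand), whereas the RefSeq start of PSMB9 is at chr6:32854192. TAP1, across the short stretch between the RefSeq starts, went from 19.6 and 19.1 CPM in shCon to 57.4 and 64.4 CPM in shUBXN1. It rose by 1.65 on the log2 scale (SE 0.0901, edgeR adjusted p = 3.25e-09). The TAP1 change exceeded that of PSMB9 by 1.25 (combined SE 0.240, 95% interval 0.784 to 1.72, treating the genes' errors as independent). The counts of PSMB9 and TAP1 therefore differed in the size of their change, and how reads in overlapping exons were divided was not tested.

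PSMB10 (chr16:67934506-67936864, minus strand), the partner of PSMB7, was the only inducible gene with a lower estimate. It had 10.8 and 11.3 CPM in shCon and 9.24 and 10.4 CPM in shUBXN1, a log2 fold change of -0.17 (SE 0.138, edgeR adjusted p = 0.318). With each library's trend on GC content removed, the value was -0.38 (edgeR adjusted p = 0.0300). A read-through gene on the same strand, ENSG00000261884, covers 39.4% of the exon bases of PSMB10, so reads can be divided between them. That gene had 1.99 and 2.89 CPM in shCon and 4.72 and 4.78 CPM in shUBXN1. Summed, the CPM of both genes came to 12.8 and 14.2 in shCon against 14.0 and 15.2 in shUBXN1, groups that overlapped, with a log2 ratio of the means of 0.11, a sum chosen after the values were seen. The sum holds all counts of the read-through gene, also those outside the shared bases, and how reads were divided was not tested.

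PSME1 (chr14:24136163-24138967, plus strand) and PSME2 (chr14:24143362-24147570, minus strand) face each other across 4395 bases and encode the PA28 subunits alpha and beta. PSME2 had 52.2 and 54.7 CPM in shCon and 64.8 and 66.9 CPM in shUBXN1. The groups lay well apart, and the rise was 1.23-fold (log2 fold change 0.30, SE 0.0755, edgeR adjusted p = 0.00355). Without shCon replicate 1 the adjusted p was 0.0510 and without shCon replicate 2 it was 0.0503, with edgeR log2 fold changes of 0.27 and 0.32. Counts on each pseudogene of PSME2 were 0 to 2 per library. The antisense genes ENSG00000259529 and RNF31 cover 6.03% of the exon bases of PSME2. ENSG00000259529 had 165 and 134 counts in shCon and 203 and 206 in shUBXN1. RNF31 had 611 and 565 counts in shCon and 525 and 421 in shUBXN1. MIR7703, on the same strand, covers 2.15% and had 0 counts. PSME1 had 49.2 and 46.9 CPM in shCon and 50.5 and 57.9 CPM in shUBXN1, where 1 of the libraries lay near shCon. Its log2 fold change was 0.17 (SE 0.0851, edgeR adjusted p = 0.0987). The difference between the changes of PSME2 and PSME1 was 0.13 with a 95% interval from -0.0943 to 0.352, so the subunits were not shown to differ. PSME1 passed the test in 5 of 15 alternatives, among them total count scaling (0.26, edgeR adjusted p = 0.0171).

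PSMB5 (chr14:23016543-23035230, minus strand), which carries the chymotrypsin-like activity, had 89.1 and 92.5 CPM in shCon and 66.9 and 68.9 CPM in shUBXN1. The groups lay far apart relative to their spread, and the level in shUBXN1 was 0.748 of that in shCon (log2 fold change -0.42, SE 0.0731, edgeR adjusted p = 0.000223). PSMB5 fell past the threshold in all 15 alternatives, between -0.45 and -0.33 on the log2 scale. PSMB6 (chr17:4796144-4798502, plus strand), the caspase-like subunit, had 79.2 and 88.8 CPM in shCon and 71.1 and 71.3 CPM in shUBXN1. It fell by 0.24 on the log2 scale (SE 0.0785, edgeR adjusted p = 0.0187), with shCon replicate 2 farther from shUBXN1 than replicate 1. Without that library its log2 fold change was -0.17 (edgeR adjusted p = 0.333), and under total count scaling it was -0.15 (edgeR adjusted p = 0.102). PSMB7 (chr9:124353465-124415444, minus strand), the trypsin-like subunit, had 122 and 129 CPM in shCon and 123 and 128 CPM in shUBXN1. These groups overlapped, the only ones among the 10 genes to do so. The log2 fold change was 0.00023 (SE 0.0731, edgeR adjusted p = 0.998), with a 95% interval from -0.143 to 0.143. The constitutive catalytic subunits therefore gave differing values, and the change of PSMB7 exceeded that of PSMB5 by 0.42 (95% interval 0.216 to 0.621).

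PSME3 (chr17:42824385-42843760, plus strand) had 222 and 236 CPM in shCon and 187 and 209 CPM in shUBXN1. It fell by 0.21 on the log2 scale (SE 0.0793, edgeR adjusted p = 0.0376). The groups did not overlap, but the call was lost in 5 of 15 alternatives, including total count scaling (-0.12, edgeR adjusted p = 0.0938) and the fits without shCon replicate 1 (adjusted p = 0.0708), shCon replicate 2 (adjusted p = 0.355) or shUBXN1 replicate 1 (adjusted p = 0.0789). BECN1, on the other strand, covers 5.82% of its exon bases. PSME4 (chr2:53864069-53970993, minus strand) had 162 and 158 CPM in shCon and 148 and 155 CPM in shUBXN1. Its log2 fold change was -0.08 (SE 0.0721, edgeR adjusted p = 0.389), and it was above 0 under total count scaling and with the GC trend removed.

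A ratio of 2 genes within a library does not depend on how the library is scaled. PSMB8 to PSMB5 had log2 TPM ratios of -2.47 and -2.56 in shCon, against -2.03 and -1.89 in shUBXN1. The ratio was 1.47-fold higher in shUBXN1, and PSMB8 made up 15.3% and 14.5% of the summed TPM of the pair in shCon and 19.7% and 21.2% in shUBXN1. The fitted log2 fold changes of PSMB8 and PSMB5 differed by 0.56 (combined SE 0.133, 95% interval 0.296 to 0.816). The change in this ratio thus lay mostly in PSMB5, which passed the test, and less in PSMB8, which did not. PSMB9 to PSMB6 went from -4.52 and -4.96 in shCon to -3.97 and -4.23 in shUBXN1, 1.56-fold higher, and PSMB9 made up 4.19% and 3.12% of the pair in shCon and 6.01% and 5.07% in shUBXN1. The fitted difference was 0.64 (95% interval 0.175 to 1.10). PSMB10 to PSMB7 had -3.48 and -3.51 in shCon, against -3.72 and -3.61 in shUBXN1, 0.889 of the control ratio. The interval of its fitted difference, -0.476 to 0.137, included 0, and the summed CPM of PSMB10 and its read-through gene, with a log2 ratio of 0.11, gave the other direction with groups that overlapped. PSMB8, PSMB9 and PSMB10 were the minor members of their pairs in every library.

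Among the activators, PSME1 to PSME3 had log2 TPM ratios of -0.70 and -0.86 in shCon, against -0.42 and -0.38 in shUBXN1, 1.30-fold higher. PSME2 to PSME3 went from -0.24 and -0.26 in shCon to 0.32 and 0.20 in shUBXN1, 1.42-fold higher. PSME2 thus lay below PSME3 in both shCon libraries and above it in both shUBXN1 libraries. PSME2 to PSME1 was 0.46 and 0.60 in shCon and 0.74 and 0.59 in shUBXN1, and its groups overlapped. The other ratios had groups that did not overlap. Among all single genes tested, 78.0% did not overlap in CPM, and no such share was computed for ratios of other gene pairs. With 2 libraries against 2, an exact permutation test of a ratio cannot go below p = 0.333 (two-sided), and no such test was run on the ratios.

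**Figure D3:**
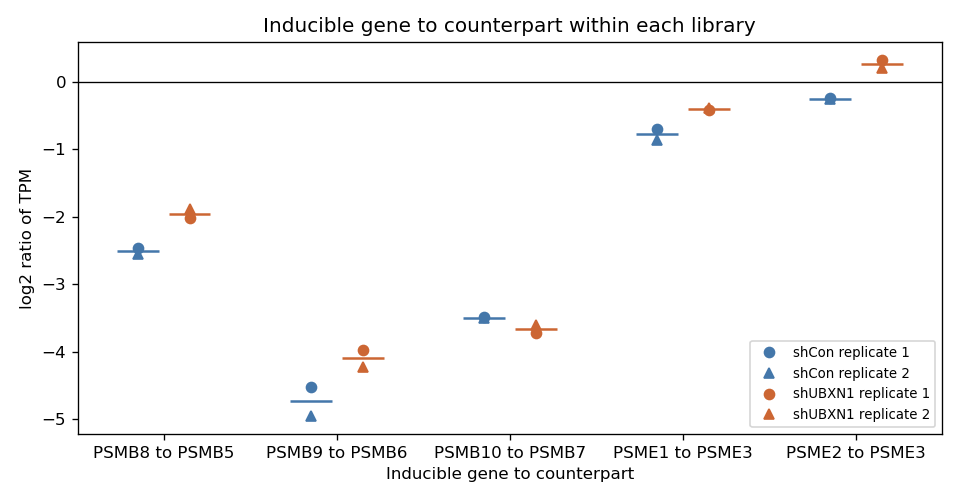
Log2 ratio of TPM of each inducible gene to its counterpart within each library, with shCon in blue, shUBXN1 in orange and a dash at the mean of each group. The ratios to PSMB5, PSMB6 and PSME3 are higher in both shUBXN1 libraries, the ratio of PSMB10 to PSMB7 is lower, though its fitted interval includes 0, and only PSME2 to PSME3 crosses 0, where both genes have equal TPM.

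The other subunits of the core particle were mostly lower in shUBXN1. Of 8 genes of the outer alpha rings, 0 rose, 6 fell and 2 did not pass, with a median log2 fold change of -0.45. PSMA1 fell from 198 and 190 CPM in shCon to 114 and 115 CPM in shUBXN1 (log2 fold change -0.76, SE 0.0722), PSMA5 had -0.54, and PSMA8, a form of alpha subunit known from testis, had -1.62 at 6.15 and 6.59 CPM in shCon and 2.22 and 1.92 CPM in shUBXN1. Of the 4 beta subunits without catalytic activity, 0 rose, 3 fell (PSMB3 at -0.38, PSMB2 at -0.28 and PSMB1 at -0.22) and 1 did not pass, with a median of -0.25. With the GC trend removed, or without shCon replicate 2, only 1 of the 4 fell. Of the assembly chaperones, which include POMP, and the inhibitor, 4 of 6 fell and 0 rose. Among those that fell were the assembly factors PSMG2 (-0.62) and PSMG1 (-0.57) and the inhibitor PSMF1 (-0.40). PSMB5 and PSMB6 were thus not alone in the core particle in being lower, and in each of these lists the share that fell was above the 28.2% of all genes tested.

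The regulatory particle, which recognizes and unfolds ubiquitinated proteins, had 13 of 19 genes lower, 1 higher and 5 that did not pass, with a median of -0.29, where 28.2% of all genes tested were lower and 28.0% higher. The gene that rose was PSMD2, a large scaffold subunit, from 349 and 356 CPM in shCon to 553 and 619 CPM in shUBXN1 (log2 fold change 0.73, SE 0.0813). ADRM1 (-0.88) and PSMD4 (-0.64), both ubiquitin receptors, and PSMC6 (-0.70), an ATPase of the base, were the 3 that fell with the smallest p. The number that fell was 7 without shCon replicate 2 and 9 with the GC trend removed.

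The genes that carry proteasome products to the cell surface did not follow one direction. Of 15 genes of peptide supply to MHC class I, 8 rose, 5 fell and 2 did not pass, with a median log2 fold change of 0.32. Among all genes tested, 28.0% rose and 28.2% fell. The share of the list that rose was thus above its background, and the share that fell was near it. Under total count scaling 10 rose and 3 fell. Besides TAP1, the heavy chain gene HLA-B rose from 6.82 and 7.02 CPM in shCon to 24.5 and 27.2 CPM in shUBXN1 (log2 fold change 1.90), and HLA-C, another of this family, rose by 0.72. The peptidases THOP1 (-0.68) and ERAP1 (-0.68), which trim or destroy peptides, and the chaperone CALR (-0.44) fell. TAP2, the other subunit of the peptide transporter, had 24.6 and 23.5 CPM in shCon and 11.6 and 21.2 CPM in shUBXN1, so 1 library set its value. Its log2 fold change was -0.55 (edgeR adjusted p = 0.0208), and without shUBXN1 replicate 1 it was -0.18 (edgeR adjusted p = 0.166). HLA genes share sequence with each other, so reads can be divided between them.

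Of 17 tested genes of the interferon pathway that acts on the immunoproteasome genes, 11 rose, 3 fell and 3 did not pass, with a median of 0.43, against the same background of 28.0% higher and 28.2% lower. The transcription factors STAT3 (1.26) and STAT2 (1.10) and the feedback inhibitor SOCS3 (1.39) rose with the smallest p. IRF1, a factor known to bind ISRE-type elements, went from 22.3 and 23.9 CPM in shCon to 33.7 and 37.5 CPM in shUBXN1 and rose by 0.62 (SE 0.0948, edgeR adjusted p = 6.29e-05). IFNGR1 (-0.58), a subunit of the interferon-gamma receptor, IFNAR1 (-0.33), a subunit of the type I receptor, and the phosphatase PTPN2 (-0.34) fell. NLRC5, the transactivator of MHC class I genes, had 5.32 and 6.17 CPM in shCon and 6.09 and 4.69 CPM in shUBXN1, which overlapped (log2 fold change -0.09, edgeR adjusted p = 0.741).

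NRF1, the product of NFE2L1, raises the transcription of the constitutive proteasome genes when proteasome activity is short. NFE2L1 had 269.6 and 274.9 CPM in shCon and 244 and 265 CPM in shUBXN1 (log2 fold change -0.10, edgeR adjusted p = 0.293). Of the 8 genes listed with its control, 4 rose, 2 fell and 2 did not pass, with a median of 0.068. Among all genes tested, 28.0% were higher and 28.2% lower. The share of the list that rose was thus above the background, and the share that fell was near it. Among those that rose was NFE2L2 (0.23), which encodes a separate factor, NRF2. The partners MAFG (1.86), MAFF (1.45) and MAFK (0.66) rose, whereas VCP (-0.59) and the deglycosylating enzyme NGLY1 (-0.64), both needed to activate the NRF1 protein, fell.

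Because immunoproteasome genes are expressed constitutively by haematopoietic cells, markers of other cells were counted. PTPRC, which defines haematopoietic cells, had 0 to 4 counts per library, and CD3E, CD2, MS4A1 and HLA-DRA had 0 in all 4. Of 12 haematopoietic markers, 3 were tested and 1 rose, CD79A, which made up most of the list's summed level of 25.7 and 30.6 TPM in shCon and 62.6 and 59.0 TPM in shUBXN1. The 2 others tested did not pass. ITGAM had 233 and 180 counts in shCon and 155 and 146 in shUBXN1, and CD14 had 13 to 20 counts per library. Endothelial markers summed to 15.2 and 15.3 TPM in shCon and 32.0 and 32.3 TPM in shUBXN1, with KDR and PECAM1 higher among 5. Fibroblast and stellate cell markers summed to 26.6 and 25.3 TPM in shCon and 14.4 and 15.1 TPM in shUBXN1, most of it from LUM. Of 6 such markers 4 were tested, of which LUM and DCN fell, while COL1A1 rose from 10 and 4 counts in shCon to 58 and 59 in shUBXN1. The 3 summed levels differed between the groups without overlap, and their part in the results was not tested. Among all genes tested, 78.0% did not overlap in CPM, 28.0% rose and 28.2% fell. Of 10 hepatocyte and liver cancer cell markers, 2 rose and 5 fell, and 0 rose with either shCon library left out. In the fit on all 4 libraries, the keratin KRT18 and SERPINA1 rose. KRT18 had 1283 and 1320 TPM in shCon and 1595 and 1767 TPM in shUBXN1. SERPINA1 had 10.3 and 10.9 TPM in shCon and 14.5 and 14.6 TPM in shUBXN1. The epithelial keratin KRT8 fell, from 4047 and 4059 TPM in shCon to 2993 and 3239 TPM in shUBXN1. ALB, the albumin gene, was at 16.0 and 14.8 TPM in shCon and 3.99 and 4.21 TPM in shUBXN1. The hepatocyte genes TTR and APOA1 were below 4 TPM in every library. Of the genes on this list, those of secreted proteins, SERPINA1 among them, thus stood far below the keratins in every library.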

How the data were processed

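RNA-seq of MHCC97H cells was analysed in 4 libraries, 2 of shCon and 2 of shUBXN1, grouped by their labels. The authors deposited a table of unnormalized expected counts, written with up to 2 decimals, beside the length of each gene. Per the labels, the submitters' processing notes name HISAT2 2.0.4, StringTie 1.3.0 and GRCh37, whereas the study's methods name GRCh38, TPM and limma. The counting tool, the annotation and strand use are not given in the sources used here. The table holds no coordinates. Its gene IDs were matched to GENCODE v44 (GRCh38), where 99.7% had a symbol, and printed positions come from there or from RefSeq (GRCh38.p14).

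Rounded counts that passed filterByExpr were scaled by TMM and tested two-sided by glmQLFit and glmQLFTest in edgeR 4.0.16 (R 4.3.3), with Benjamini-Hochberg adjustment over 16863 genes. The fit had no block. SE is the absolute log2 fold change over the root of the F statistic, and 95% intervals rest on a normal approximation of it. They can be narrower than the test allows. That of PSME1, 0.00595 to 0.340, left out 0 although its unadjusted edgeR p was 0.0617. All intervals of differences between genes treat the genes' errors as independent. Replicates differed by more than counting noise (chi-square of 3.79 and 8.37 per degree of freedom). The test was also tried on counts simulated with the means, library sizes and pooled spread of these data. With 2 libraries per group, the depth of 23373700 to 27380508 counts and the pooled spread (biological coefficient of variation 0.0711) set the precision.

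The members and lists were chosen with earlier results of these data known. Named were the 10 members, UBXN1, PSMB8-AS1, and in each list up to 3 genes per direction past an adjusted p of 0.05 by smallest p, besides NFE2L1, IRF1, NLRC5, TAP1 and TAP2. A further item of that rule is not reported here. The lists covered proteasome subunits, assembly factors, peptide supply to MHC class I, interferon signaling, NRF1 control and cell type markers. Alternatives were DESeq2 1.42.0, limma-voom and limma 3.58.1 on log2(TPM + 1) or log2(TPM + 0.1), total count scaling, other filters, a replicate block, removal of each library's GC trend, the study's fold change rule, leaving out each library and, added after the data were seen, unrounded counts.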

Additional observations from a re-analysis of the deposited data

How the results depend on the processing

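Of the inducible genes, 2 were called higher in place of 1 under total count scaling, with at least 10 counts in every library, and in limma on log2(TPM + 1) and log2(TPM + 0.1), 0 at a fold change of 2 and unadjusted p under 0.05, and 0 to 2 with 1 library left out. With the GC trend removed, with or without the replicate block, 1 inducible gene (PSMB10) was called lower in place of 0. Of the genes set against them, 1 was called lower in place of 3 under total count scaling, 0 at a fold change of 2, and 1 to 3 with 1 library left out. The log2 difference in the ratio of PSMB10 to PSMB7 went to -0.39 with the GC trend removed. PSMB7 was at -0.0056 with no filter on low counts, at -0.0016 in DESeq2 and between -0.043 and 0.026 with 1 library left out. PSME4 was at 0.0080 under total count scaling and at 0.042 with the GC trend removed, with or without the replicate block. NLRC5 was at 0.0019 under total count scaling and between -0.29 and 0.074 with 1 library left out, at 0.0046 without shCon replicate 2. The replicate numbers did not pair the samples: the labels name no shared batch, and deviations of same-numbered libraries correlated at 0.0393. A replicate block called 5000 genes higher and 5023 lower, against 4727 and 4751 without it, and changed no member's call. Under total count scaling the all-gene median was 0.101 in place of 0.016, and 5324 genes were called higher and 3969 lower. Of values recomputed for single genes, 640 kept direction and side of the threshold, 30 lost the call, 9 gained one and 10 turned in direction. The causes were not tested. Counting depth limits genes of few counts, such as PSMB9, PSMA8, PSMB8-AS1 and SOCS1.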

Other observations

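The genes whose pattern over the 4 libraries was most like that of PSMB9, among 10894 genes with a mean of at least 5 TPM, were LYSMD4, MYO9A, HERC1, ANKZF1 and MDN1. The measure was the Euclidean distance of log2(TPM + 1) centred on its mean, from 0.0286 for LYSMD4 to 0.0589 for MDN1. LYSMD4 had 10.3 and 8.48 TPM in shCon and 14.3 and 11.1 TPM in shUBXN1, and like PSMB9 it was higher in replicate 1 of each group. With 4 libraries many genes share such a pattern.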
